A study of Homo sapiens with 12 samples.

Results

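The insulin-like growth factor (IGF) axis was examined in telomerase-immortalized human gingival keratinocytes (TIGK), an established cell line from the oral epithelium, that were grown in high glucose with or without L-arginine (Arg). The axis was represented by 10 genes, namely the ligand IGF2, the receptors IGF1R, IGF2R, and INSR, the adaptors IRS1 and IRS2, and the binding proteins IGFBP2, IGFBP3, IGFBP6, and IGFBP7. They were taken by name from a table of raw counts with 58735 genes, 29789 of them detected in 1 or more libraries. The name IGF2 stood on 2 rows, so that 11 rows carried a member's name, and the second IGF2 row (ENSG00000284779) was listed at 0 in every library. The genes were chosen from measured levels of these same libraries, in control and Arg-treated cells at both times, so the tests given for them describe where each gene stood among all genes tested and support nothing further.

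TIGK cells at 48 mM glucose received 500 µM Arg or no Arg for 24 or 48 h, which gave 4 groups of 3 libraries (replicates A, B, and C), 12 in all. All groups were transfected with hTERT, come from the same line, and were kept in a base medium without Arg, so the untreated control had no added source of it besides the supplements. The shared medium also contained insulin, which acts through INSR and, at high levels, IGF1R, as well as TGF-α, pituitary extract, and hydrocortisone. The labels do not say whether the replicates were separate cultures, so the p-values measure the spread between these libraries, which may be technical. The labels name gingival keratinocytes, and all 9 keratinocyte markers examined (KRT5, KRT14, KRT6A, KRT17, TP63, CDH1, EPCAM, LAMB3, and DSG3) had counts in each group, with a summed level of 42065 to 54232 CPM (counts scaled to the library total) per library.

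IGF1 and IGF2 are secreted growth factors that bind the receptor tyrosine kinase IGF1R and, in part, the insulin receptor INSR. The activated receptors phosphorylate IRS1 and IRS2, which recruit PI3-kinase and the RAS and MAP kinase cascade to drive growth and survival, whereas IGF2R carries IGF2 to the lysosome and does not signal in this way. The IGFBPs bind the ligands outside the cell, prolong their life, and hold them away from the receptor. In stratified epithelia, the IGF receptor is known for its role in the growth of basal keratinocytes, and IGFBP3 is expressed in the basal layer.

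Raw counts summed to between 16542243 and 19040964 per library. Control replicate B at 48 h stood apart from its group. Compared with replicates A and C, its counts gave a chi-square of 20.9 and 23.9 per degree of freedom, where A against C gave 3.66. Mitochondrially encoded genes took 1.55% of its counts (0.624% to 1.31% in the other 11 libraries). Smaller chi-square gaps were seen at 24 h, where control B gave 12.3 and 12.5 and A against C gave 6.54. Arg A gave 12.4 and 10.9 at that time, where B against C gave 5.41. The 48 h Arg pairs gave 4.52 to 8.45. The 48 h control replicate B was above every Arg library for IGFBP3. For IGF2R and IGFBP6 it lay inside the Arg range, where controls A and C did not. For IGFBP7 it lay between the other controls and the Arg libraries. For INSR and IRS2 it lay farther from the Arg libraries than the other controls did. For IGF2, IGF1R, IRS1, and IGFBP2, controls A and C themselves overlapped the Arg range. The main 48 h results that rest on this library are therefore given with and without it. That choice used the values of the genes tested, and it leaves only control replicates A and C at 48 h. The adjusted p-values without replicate B are therefore descriptions only. What set this library apart was not tested. CPM are given after TMM normalization over the 12 libraries, and tests are edgeR's quasi-likelihood test with Benjamini-Hochberg adjustment over all genes. The standard error (SE) given is that of the log2 fold change. A gene was called upregulated or downregulated at an adjusted p under 0.05. The smallest p that an exact permutation test of 1 gene could give here is 0.1.

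Promoter windows from RefSeq (GRCh38.p14) were matched to 8 of the 10 members, all but IGF2 and IGFBP7. The windows of IRS1, IRS2, and IGFBP3 are shown because these genes were called at 24 h. Each is 250 bases ending just before the RefSeq start site, 5′ to 3′ on the strand of the gene, with the GC box in capitals. That of IRS1 lies at chr2:226799821-226800070 (minus strand), that of IRS2 at chr13:109786584-109786833 (minus), and that of IGFBP3 at chr7:45921273-45921522 (minus). The RefSeq start of IGFBP3 lies 602 bases inside the 5′ end that the count table gives for this gene.
IRS1: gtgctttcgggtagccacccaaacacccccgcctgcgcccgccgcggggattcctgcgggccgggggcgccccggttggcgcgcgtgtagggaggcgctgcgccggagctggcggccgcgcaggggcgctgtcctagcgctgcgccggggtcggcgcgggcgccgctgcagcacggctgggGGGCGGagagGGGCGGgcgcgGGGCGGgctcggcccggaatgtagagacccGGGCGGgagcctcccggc
IRS2: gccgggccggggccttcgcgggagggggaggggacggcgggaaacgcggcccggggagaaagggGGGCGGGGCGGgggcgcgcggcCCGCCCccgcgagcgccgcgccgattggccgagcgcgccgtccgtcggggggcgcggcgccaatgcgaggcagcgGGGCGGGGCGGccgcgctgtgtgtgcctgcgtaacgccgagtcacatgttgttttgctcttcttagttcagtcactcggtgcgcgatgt
IGFBP3: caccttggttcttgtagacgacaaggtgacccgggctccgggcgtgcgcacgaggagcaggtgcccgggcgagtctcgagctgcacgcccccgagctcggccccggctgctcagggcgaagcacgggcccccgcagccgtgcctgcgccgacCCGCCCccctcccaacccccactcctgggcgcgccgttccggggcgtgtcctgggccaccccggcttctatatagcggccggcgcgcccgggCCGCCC
The letters GGGCGG, a GC box of the kind bound by SP1, were found on either strand in all 8 member windows and in 42.3% of 27305 promoters of the same length. That share was not matched for GC, which made up 56.8% to 81.2% of the member windows. IGFBP2 had 3 RefSeq windows, and only the first listed was used. The FOXO motif TGTTTAC was found in the window of IGFBP6 and in 2.98% of all promoters. The E-box CACGTG was found in that of IGF2R and in 6.49% of all promoters. The C/EBP-ATF motif TGATGNAA and the AP-1 motif TGANTCA, in 3.19% and 6.60% of promoters, were in 0 member windows. GC made up 80.8%, 76.4%, and 76.0% of the IRS1, IRS2, and IGFBP3 windows. These matches are descriptions of the letters only.

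To see how Arg affected the axis at 24 h, the 3 Arg libraries were compared with the 3 untreated controls. IGF2, IGFBP3, and IRS2 were upregulated, by 2.42-, 1.92-, and 1.25-fold, and IRS1 and IGFBP7 were downregulated, to 0.675 and 0.803 of the control level. Of the 10 members tested, 3 were called higher and 2 lower. Over all 14279 genes tested, 2.79% were called higher and 3.84% lower. The median log2 fold change of the members was −0.08, against 0.00 over all genes. In 3 members all Arg libraries were above all controls and in 3 all were below, which held for 12.9% and 13.4% of all genes. These shares describe a set chosen with these levels known.

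IGF2, the ligand of the axis (ENSG00000167244, chr11:2129112-2149603, minus strand), had 2.38, 3.28, and 1.80 CPM in the control libraries A, B, and C at 24 h and 4.55, 6.29, and 7.26 CPM in the Arg libraries. The groups did not overlap, and the means were 2.49 ± 0.745 and 6.03 ± 1.37 CPM (SD, n = 3). This was a 2.42-fold rise (log2 fold change 1.28, SE 0.26, adjusted p = 0.00726, edgeR). It rests on 133 counts in the control group and 324 in the Arg group, and without Arg replicate C the adjusted p of edgeR was 0.0542. At 48 h the control libraries had 7.76, 8.61, and 6.81 CPM and the Arg libraries 11.7, 9.35, and 7.26 CPM. These groups overlapped, and the log2 fold change was 0.29 (adjusted p = 0.546, edgeR), or 0.38 without control replicate B (adjusted p = 0.196). The other ligand genes, IGF1 and insulin (INS), had 0 counts in all 12 libraries, and so did the INS-IGF2 readthrough. The span of IGF2 overlaps that of its antisense gene IGF2-AS, which had 46 counts in total beside the 1406 of IGF2, and it is not stated whether the counting used the strand.

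Among the receptors, none was called at 24 h. IGF1R, the signaling receptor for both IGFs (chr15:98648539-98964530, plus strand), had 68.1, 70.7, and 69.9 CPM in the controls and 57.1, 63.2, and 64.2 CPM with Arg. All Arg libraries were below all controls, but the log2 fold change of −0.18 did not pass (SE 0.086, adjusted p = 0.226, edgeR). At 48 h the controls had 75.3, 72.5, and 75.3 CPM and the Arg libraries 72.7, 69.6, and 90.9 CPM, which overlapped (log2 fold change 0.06, and 0.04 without control replicate B).

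IGF2R, the mannose 6-phosphate receptor that clears IGF2 (chr6:159969099-160113507, plus strand), had 156, 187, and 166 CPM in the 24 h controls and 147, 143, and 171 CPM with Arg (log2 fold change −0.14, adjusted p = 0.369, edgeR). At 48 h the values were 228, 248, and 218 CPM in the controls and 241, 250, and 281 CPM with Arg. Control replicate B alone lay within the Arg range, and the log2 fold change was 0.15 (adjusted p = 0.407, edgeR) with it and 0.20 without it (adjusted p = 0.0311). INSR, the insulin receptor (chr19:7112255-7294034, minus strand), was low throughout, with 2.71, 2.60, and 3.13 CPM in the 24 h controls and 2.87, 2.97, and 2.58 CPM with Arg, so that the groups overlapped. At 48 h it had 4.41, 6.54, and 4.88 CPM in the controls and 4.43, 3.27, and 4.03 CPM with Arg (log2 fold change −0.43, adjusted p = 0.440, edgeR), and −0.24 without control replicate B (adjusted p = 0.536). The related receptor gene INSRR had at most 3 counts in a group.

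**Figure D1:**
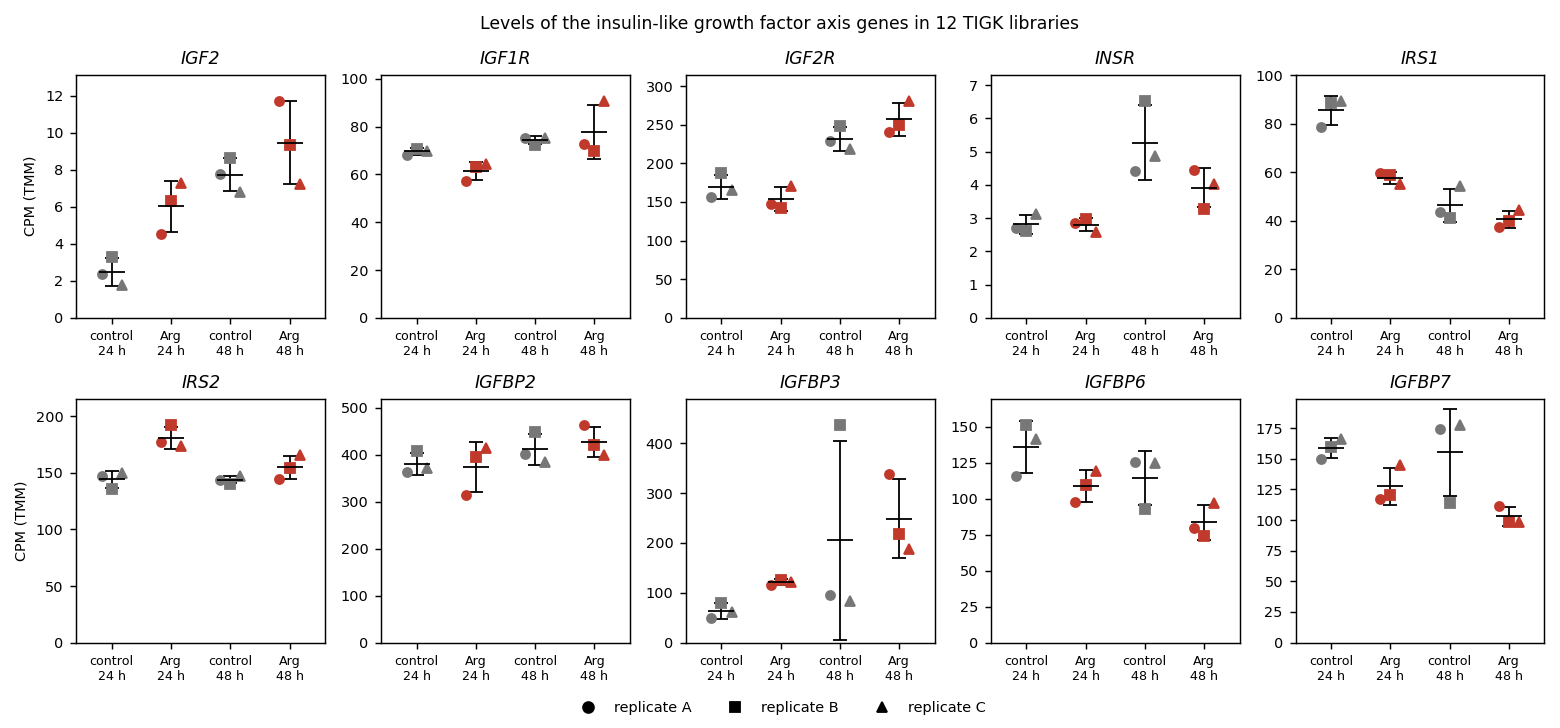
Level of each of the 10 IGF axis genes in CPM after TMM normalization (y axis, from 0, a separate scale per gene) in control (grey) and Arg-treated (red) TIGK cells at 24 and 48 h (x axis). Symbols are the replicates A, B, and C, and bars are the mean and SD of 3 libraries. At 24 h the Arg and control libraries of IGF2, IGF1R, IRS1, IRS2, IGFBP3, and IGFBP7 do not overlap, and at 48 h control replicate B of IGFBP3 lies at 436 CPM, above all Arg libraries.

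The 2 adaptors differed in opposite directions at 24 h. IRS1, the adaptor on which IGF1R and INSR converge (chr2:226731317-226799759, minus strand), had 78.7, 88.3, and 89.5 CPM in the controls and 59.6, 58.7, and 54.9 CPM with Arg. The groups were far apart, with a log2 fold change of −0.57 (SE 0.088, adjusted p = 0.000824, edgeR), and the call held with each library left out in turn. IRS2, its close relative (chr13:109752698-109786568, minus strand), had 147, 136.0, and 150.1 CPM in the controls and 177, 192, and 173 CPM with Arg. IRS2 rose by 0.32 on the log2 scale (SE 0.080, adjusted p = 0.0214, edgeR). With all 6 libraries the groups did not overlap, but the adjusted p of edgeR rose to 0.0764 without control replicate A, 0.0528 without control C, 0.114 without Arg B, and 0.0587 without Arg C.

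At 48 h neither adaptor was called. IRS1 had 43.6, 41.3, and 54.2 CPM in the controls and 37.4, 39.7, and 44.5 CPM with Arg, so all libraries were below those of the 24 h Arg group, and the log2 fold change was −0.20 (adjusted p = 0.462, edgeR; 0.0546 without control replicate B). IRS2 had 144, 141, and 147 CPM in the controls and 145.0, 154, and 166 CPM with Arg (log2 fold change 0.10, adjusted p = 0.531, edgeR).

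IGFBP3, the main carrier of IGFs in serum (chr7:45912245-45921874, minus strand), had the smallest p of the members at 24 h. It had 48.4, 80.0, and 60.6 CPM in the controls and 115, 127, and 121 CPM with Arg, and the lowest Arg library was well above the highest control. IGFBP3 rose by 0.94 on the log2 scale (SE 0.13, adjusted p = 0.000244, edgeR). The call held with each library left out, at 0.78 to 1.15, but not in a single model of all 12 libraries (adjusted p = 0.169), which shares its estimate of the spread with the 48 h controls. At 48 h the controls had 94.7, 436, and 84.4 CPM and the Arg libraries 339, 219, and 188 CPM. Replicate B was 4.87 times the mean of the other two controls and above every Arg library. The log2 fold change was 0.28 with it (SE 0.48, adjusted p = 0.834, edgeR) and 1.47 without it (SE 0.15, adjusted p = 3.17e-07).

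IGFBP7, a secreted protein of low affinity for IGFs (chr4:57030773-57110385, minus strand), had 149.9, 160, and 166 CPM in the 24 h controls and 117, 121, and 145 CPM with Arg. It was downregulated, with a log2 fold change of −0.32 (SE 0.090, adjusted p = 0.0437, edgeR), but this call was close to the threshold. The adjusted p was 0.0841 without control replicate A, 0.158 without control C, 0.0978 without Arg A, 0.172 without Arg B, and 0.133 in a single model of all 12 libraries, by edgeR. At 48 h it had 174, 114, and 177 CPM in the controls and 112, 98.5, and 98.7 CPM with Arg. All Arg libraries were below all controls, the only member of which this held, against 8.51% of all genes. Its log2 fold change was −0.59 (adjusted p = 0.134, edgeR), and −0.77 without control replicate B (SE 0.066, adjusted p = 1.96e-08). The span of IGFBP7 (29673 counts) overlaps POLR2B on the opposite strand (40747 counts), so its values are uncertain. The other genes whose span overlaps a member had at most 113 counts in total, the most for AL353625.1 at IGF2R.

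IGFBP6, which prefers IGF2 over IGF1 (chr12:53097436-53102345, plus strand), had 116, 151, and 142 CPM in the 24 h controls and 97.5, 110, and 120 CPM with Arg, with 1 control inside the Arg range. The log2 fold change was −0.32 (SE 0.10, adjusted p = 0.0637, edgeR), and the adjusted p was 0.0380 with DESeq2 and 0.0343 when edgeR took the replicate letter as a block. At 48 h it had 126, 92.8, and 125 CPM in the controls and 79.6, 74.1, and 97.0 CPM with Arg. Control B alone lay within the Arg range, and the log2 fold change was −0.46 (adjusted p = 0.169, edgeR) with it and −0.59 without it (SE 0.081, adjusted p = 2.46e-05).

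IGFBP2, which binds IGF2 more tightly than IGF1, was not called at either time. It had 363, 408, and 371 CPM in the 24 h controls and 314, 395, and 414 CPM with Arg (chr2:216632828-216664436, plus strand), and 402, 448, and 385 CPM against 463, 421, and 399 CPM at 48 h. The groups overlapped at both times, with log2 fold changes of −0.02 (adjusted p = 0.910, edgeR) and 0.05, the latter 0.12 without control replicate B (adjusted p = 0.208).

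At 48 h, edgeR called 0 of the 10 members in either direction, 2 passed at an unadjusted p under 0.05, and DESeq2 called 2 lower. These were IGFBP6 (adjusted p = 0.0155) and IGFBP7 (adjusted p = 0.00113). At the unadjusted p 13.4% of all genes passed, and DESeq2 called 0.386% of 10871 genes higher and 1.17% lower. By edgeR, 0% of all 14562 genes tested were called higher and 0.117% lower, and 8.56% and 8.51% had groups that did not overlap, higher and lower. When the replicate letter was a block, the same 2 members were called lower, with log2 fold changes of −0.45 and −0.57 (adjusted p = 0.00878 and 0.00518, edgeR), and 0.295% and 0.968% of all genes were called higher and lower. Without control replicate B, IGF2R and IGFBP3 were called higher and IGFBP6 and IGFBP7 lower. In that comparison 7.76% and 8.17% of 14854 genes were called higher and lower. The median log2 fold change of the members was 0.06 with the library and 0.07 without it, against 0.00 and 0.01 over all genes.

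**Figure D2:**
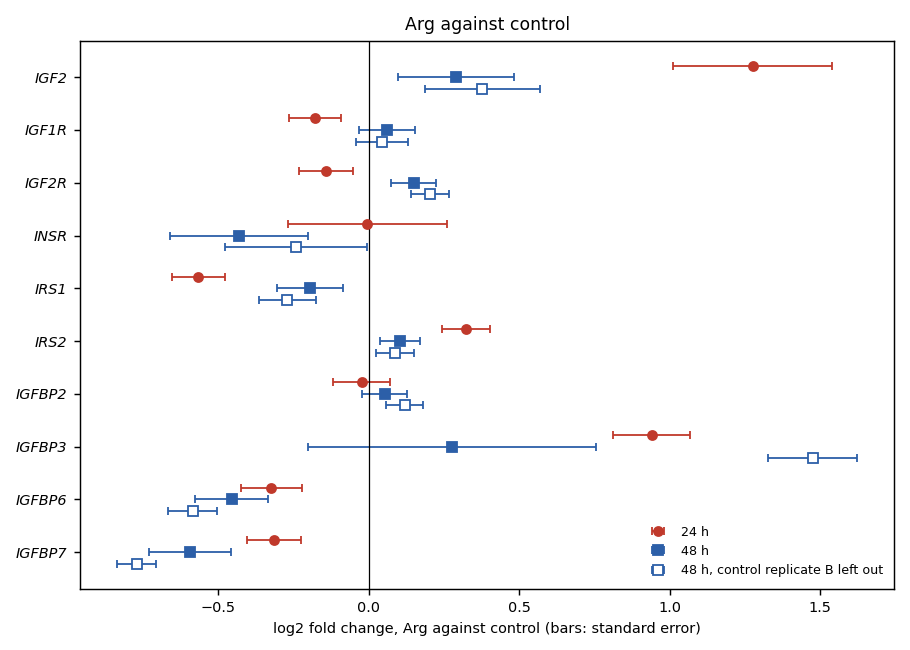
Log2 fold change of each IGF axis gene in Arg-treated against control TIGK cells (x axis) at 24 h (red), at 48 h (filled blue), and at 48 h with control replicate B left out (open blue), from edgeR with 3 libraries per group except where 1 was left out. Bars are standard errors. IGFBP3 moves from 0.28 to 1.47 when that library is left out, and IGF2 and IRS1 lie farther from 0 at 24 h than at 48 h.

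The Arg effect at 48 h minus that at 24 h was tested as an interaction over all 12 libraries, and 0 of 10 members were called by edgeR (4 at an unadjusted p under 0.05, as were 6.87% of all genes) and 0 by DESeq2. By edgeR, 0.0132% of 15148 genes were called higher and 0% lower. DESeq2 gave an adjusted p to only 6110 genes and called 0.147% of them higher and 0.196% lower. A member without an adjusted p from DESeq2 was counted as not called. The difference was −0.99 for IGF2 (SE 0.33, adjusted p = 0.606, edgeR), 0.37 for IRS1 (adjusted p = 0.609), 0.29 for IGF2R (adjusted p = 0.671), and −0.22 for IRS2 (adjusted p = 0.711). For IGFBP3 it was −0.66 (adjusted p = 0.877, edgeR) and 0.53 without control replicate B (adjusted p = 0.474). The effects at the 2 times were therefore not shown to differ for any member.

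The libraries were next compared between 48 and 24 h within each treatment. These comparisons use the same libraries as those of Arg against control, so their values are set side by side only. In control cells IGF2, IGF2R, INSR, and IGFBP3 were higher at 48 h and IRS1 was lower. These 4 and 1 of 10 members compare with 9.90% and 10% of 14449 genes called higher and lower. With the replicate letter as a block, these shares over all genes were 13.6% and 14.4%. In Arg-treated cells IGF2, IGF1R, IGF2R, and IGFBP3 were higher and IRS1, IRS2, IGFBP6, and IGFBP7 were lower, 4 and 4 members, against 14.3% and 14% of 14398 genes. With library size alone as the scaling, the calls over all genes changed from 1431 higher and 1451 lower to 1845 and 1008 in control cells and from 2060 and 2012 to 2568 and 1453 in Arg-treated cells.

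IGF2 rose from a mean of 2.49 to 7.73 CPM in control cells, a log2 fold change of 1.64 (SE 0.24, adjusted p = 0.00213, edgeR), and from 6.03 to 9.45 CPM with Arg, a change of 0.65 (SE 0.20, adjusted p = 0.0226). In the controls all 48 h libraries were above all 24 h libraries. With Arg the ranges met, since replicate C had 7.26 CPM at both times, and the adjusted p of edgeR was 0.0904 without the 24 h replicate A and 0.156 without the 48 h replicate A. IGF2R rose by 0.45 in control (SE 0.086, adjusted p = 0.00544, edgeR) and by 0.74 with Arg (SE 0.079, adjusted p = 1.2e-06), and both calls held with each library left out. INSR rose by 0.91 in control cells (SE 0.24, adjusted p = 0.0213, edgeR). Its call was lost without the 24 h control A (adjusted p = 0.0870) or C (0.0605) or the 48 h control B (0.0588), and the change with Arg was 0.48 (adjusted p = 0.159). IGF1R rose by 0.34 with Arg (adjusted p = 0.0111, edgeR, and 0.110 without the 48 h Arg C), and its change in control was 0.10 (adjusted p = 0.385).

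IRS1 was downregulated over time in both treatments, with log2 fold changes of −0.88 in control (SE 0.11, adjusted p = 0.00126, edgeR) and −0.51 with Arg (SE 0.087, adjusted p = 0.000204), and both calls held with each library left out. IRS2 had a log2 fold change of −0.0019 in control cells and was lower with Arg by −0.22 (adjusted p = 0.0251, edgeR). That call was lost without the 24 h Arg B (adjusted p = 0.0987) or the 48 h Arg A (0.134) or B (0.102), and with library size alone as the scaling (0.0917).

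IGFBP3 rose by 1.04 with Arg (SE 0.14, adjusted p = 1.62e-05, edgeR). This call held with each library left out, but only in 6 of the 7 other settings described below. In control cells the change was 1.71 with control replicate B (SE 0.49, adjusted p = 0.0313, edgeR) and 0.51 without it (SE 0.15, adjusted p = 0.0311). DESeq2 did not call it (adjusted p = 0.107), and neither did edgeR without the 24 h control A (0.142) or C (0.119). Without the 48 h control B, 3 members were called higher and 1 lower in control cells, against 7.81% and 8.60% of 14749 genes. IGFBP6 and IGFBP7 were lower at 48 h with Arg, with log2 fold changes of −0.38 (adjusted p = 0.00518, edgeR) and −0.31 (adjusted p = 0.0111), and had −0.25 and −0.03 in control, or −0.12 and 0.15 without the 48 h control B (adjusted p = 0.459 and 0.188). The IGFBP6 call was lost without the 48 h Arg B (adjusted p = 0.0528), and that of IGFBP7 without the 24 h Arg C (0.0943) or the 48 h Arg B (0.0686) or C (0.0549). IGFBP2 was not called in either treatment, at 0.12 in control (0.05 without the 48 h control B) and 0.19 with Arg. The change with Arg was called in 2 of the 7 other settings and in 1 of 6 fits that left out a library.

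**Figure D3:**
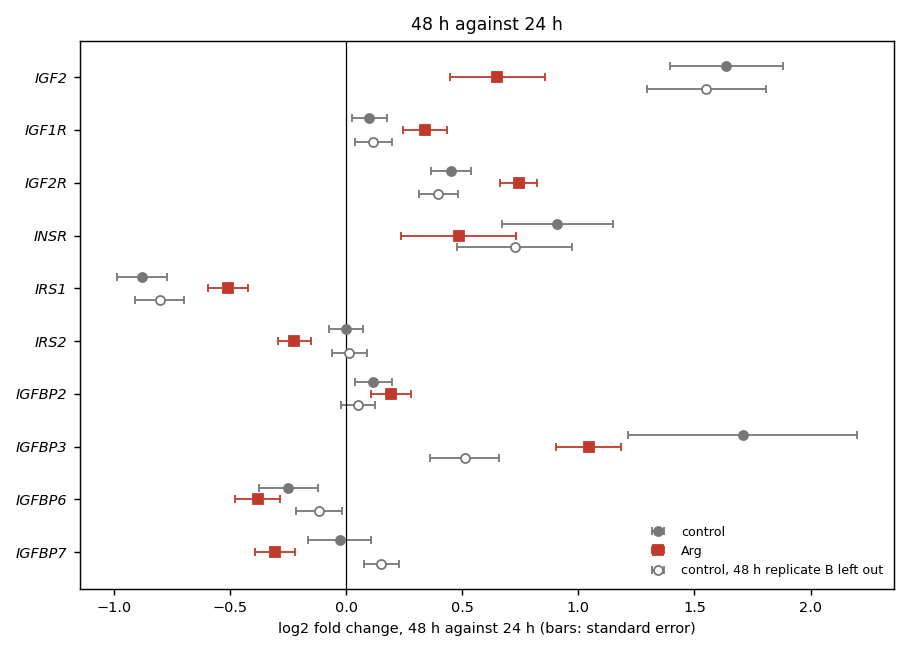
Log2 fold change of each IGF axis gene at 48 h against 24 h (x axis) in control (filled grey), in Arg-treated TIGK cells (red), and in control with the 48 h replicate B left out (open grey), from edgeR with 3 libraries per group except where 1 was left out. Bars are standard errors. IGF2 and IGF2R lie above 0 and IRS1 below 0 in both treatments, and IGFBP3 in control moves from 1.71 to 0.51 without that library.

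Markers of other cell types were low, and the summed levels of the fibroblast and endothelial markers did not overlap between the times. The 6 fibroblast markers summed to 30.2 to 54.4 CPM per library at 24 h, with COL1A2 at 0, and to 72.7 to 103 CPM at 48 h. Of 4 tested, 2 were called higher at 48 h in each treatment, beside 9.90% of all genes in control and 14.3% in Arg-treated cells. With Arg at 24 h, 1 of 4 was called lower, beside 3.84% of all genes. This was DCN, which encodes the matrix proteoglycan decorin (log2 fold change −0.70, adjusted p = 0.0294, edgeR). COL1A1, PDGFRB, and LUM had 0.06, −0.19, and 0.10, and the median of the 4 was −0.06. Melanocyte markers summed to 1.03 to 3.06 CPM with TYR at 0, endothelial markers to 0.757 to 3.01 CPM at 24 h and 4.09 to 6.41 CPM at 48 h, and leukocyte markers to 0 to 0.450 CPM with LYZ at 0. The part of these markers in the differences of the members was not tested. In such bulk libraries, fewer cells of a type and less RNA per cell cannot be told apart.

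Levels of different genes were compared as CPM divided by the exonic length in kilobases (FPKM). In control cells at 24 h, IGFBP6 stood first at 101 FPKM, followed by IGFBP7 at 82.2 and IGFBP2 at 79.8, which overlapped. IRS2 at 17.7 and IGFBP3 at 13.8 FPKM overlapped, as did IGF2R at 9.50 and IRS1 at 8.59. IGF1R followed at 4.99, and IGF2 at 0.356 and INSR at 0.269 overlapped at the bottom. With Arg at 24 h, IGFBP6, IGFBP2, and IGFBP7 overlapped as neighbours at 80.9, 78.5, and 66.1 FPKM. IGFBP3 stood at 26.4 FPKM, above IRS2 at 22.2 without overlap, and IGF2 at 0.864 was clear of INSR at 0.268.

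At 48 h the control order was IGFBP2 (86.4 FPKM), IGFBP6 (85.1), IGFBP7 (80.5), and IGFBP3 (44.9), and each overlapped the next. IRS2 (17.7) and IGF2R (13.0) followed without overlap, IGF1R (5.33) and IRS1 (4.66) overlapped, and IGF2 (1.11) and INSR (0.505) did not. With Arg, IGFBP2 stood alone at 89.7 FPKM, and IGFBP6, IGFBP3, and IGFBP7 overlapped as neighbours at 62.1, 54.4, and 53.4. Below them IRS2 (19.04), IGF2R (14.4), IGF1R (5.58), IRS1 (4.07), IGF2 (1.35), and INSR (0.374) did not overlap their neighbours. By mean FPKM, IRS1 was above IGF1R in both 24 h groups and below it in the 48 h groups. In the 48 h control replicate C, IRS1 was slightly above IGF1R (5.44 and 5.40 FPKM).

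IGFBP3 took a larger part of the binding protein mRNAs with Arg at 24 h. Of the summed FPKM of IGFBP2 to IGFBP7, IGFBP3 took 3.98% ± 0.754 in control and 8.73% ± 0.606 with Arg at 24 h (SD, n = 3), and no library overlapped. At 48 h it took 18.3% ± 4.31 with Arg and between 5.43% and 27.0% in the controls, where replicate B gave the highest share. IGFBP6 took 29.4% and 26.6% at 24 h and 24.8% and 21.3% at 48 h, in control and Arg. IGFBP7 took 24.0% and 21.7%, then 23.5% and 18.2%, while IGFBP2 took 23.3% and 25.8%, then 25.1% and 30.6%. These shares depend on each other and describe the levels above.

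**Figure D4:**
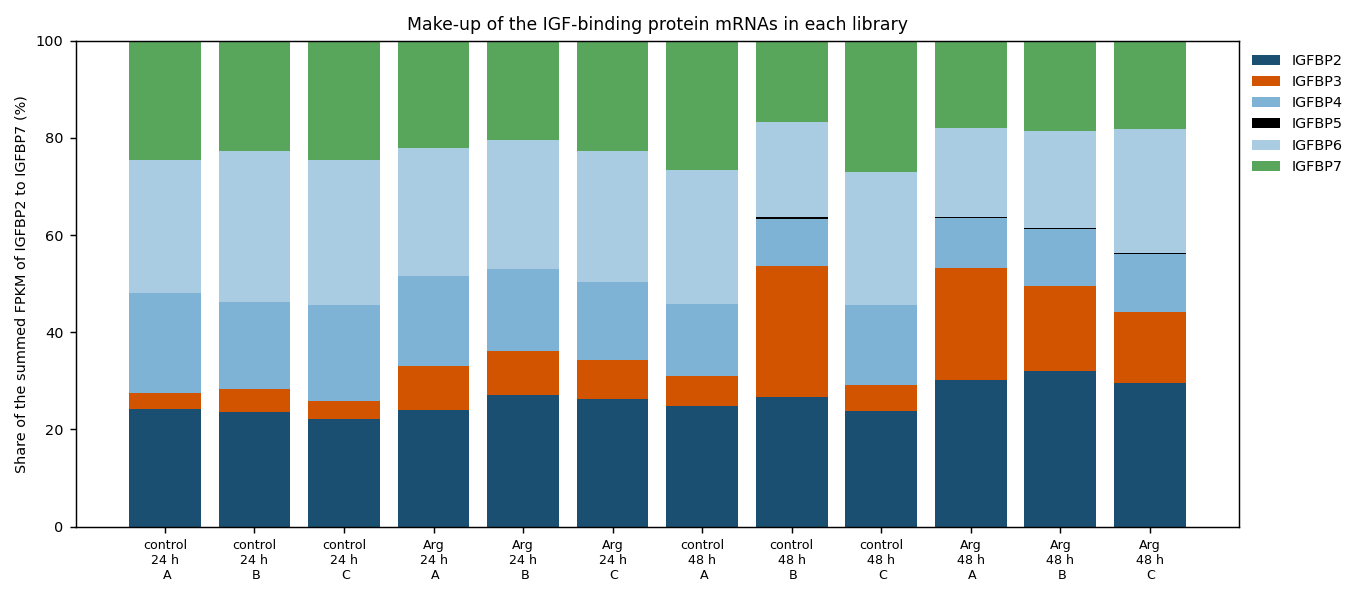
Share of each IGF-binding protein gene in the summed FPKM of IGFBP2 to IGFBP7 (y axis, %, stacked to 100) in each of the 12 libraries (x axis). IGFBP3 (orange) takes a mean of 3.98% in the 24 h controls and 18.3% in the 48 h Arg libraries, and at 48 h control replicate B resembles the Arg libraries more than the other controls, with 27.0% for IGFBP3.

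The rest of the family was described by lists that were also chosen with earlier results known. IGFBP4, another secreted binding protein, had 142 to 154 CPM in the 24 h controls and 113 to 115 CPM with Arg, and was downregulated (log2 fold change −0.36, SE 0.078, adjusted p = 0.00909, edgeR). At 48 h its change was −0.50 (adjusted p = 0.176, edgeR), and −0.68 without control replicate B (adjusted p = 1.76e-07), which had 75.2 CPM where the other controls had 111 to 123 and the Arg libraries 71.3 to 74.5. Over time it was lower by −0.51 in control (adjusted p = 0.0267, edgeR, and −0.32 without that library) and by −0.64 with Arg (adjusted p = 1.75e-06). IGFBP5 was sparse, with 12, 41, 181, and 221 counts in the 24 h control, 24 h Arg, 48 h control, and 48 h Arg groups, and was not tested at 24 h for that reason. It rose over time by 3.77 in control (adjusted p = 0.00743, edgeR), or by 2.83 without control replicate B (adjusted p = 0.0144), and by 2.44 with Arg (adjusted p = 2.65e-05). At 48 h that library had 6.17 CPM where the other controls had 1.61 to 1.68 and the Arg libraries 3.49 to 4.70, and the Arg effect on IGFBP5 was 0.39 with it (adjusted p = 0.727, edgeR) and 1.34 without it (adjusted p = 0.00347). IGFBP1 and IGFALS, which encodes the acid-labile subunit of the serum complex, had at most 5 counts in a group. Of the 11 other family genes, 4 were tested at 24 h, with 0 called higher and 2 lower, IGFBP4 and the serine protease HTRA1 (−0.44, adjusted p = 0.0125, edgeR). Of all genes, 2.79% were called higher and 3.84% lower in that comparison.

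Around IGF2, the imprinted non-coding RNA H19, its neighbour on chromosome 11, was abundant at a mean of 500.1, 767, 958, and 1358 CPM in the 24 h control, 24 h Arg, 48 h control, and 48 h Arg groups. H19 was called higher with Arg at 24 h (log2 fold change 0.62, SE 0.15, adjusted p = 0.0176, edgeR), although the groups overlapped. At 48 h the change was 0.50 (adjusted p = 0.202, edgeR), and 0.76 without control replicate B (adjusted p = 4.08e-08), whose 1269 CPM lay inside the Arg range of 1200 to 1481. IGF2BP1 and IGF2BP3, which bind the IGF2 mRNA, rose by 0.48 (adjusted p = 0.00456, edgeR) and 0.47 (adjusted p = 0.00521) at 24 h. With H19, they were the 3 called higher of 8 tested genes of the IGF2 locus and its RNA-binding proteins, and 0 were lower, beside 2.79% higher and 3.84% lower over all genes. Of 3 tested proteases of IGFBPs and their inhibitors, STC2, an inhibitor of the IGFBP protease PAPPA, was called higher (0.62, adjusted p = 0.00203, edgeR), beside the same shares.

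Genes downstream of the receptors were examined list by list at 24 h. Of 28 adaptors and brakes of the receptors tested, 0 were higher and 2 lower, with a list median of −0.10: the adaptor GRB7 (−0.57, adjusted p = 0.0193, edgeR) and the pseudokinase TRIB1 (−0.55, adjusted p = 0.00972). Of 30 PI3K, AKT, and mTOR genes, 1 was higher and 2 lower, with a median of −0.06. These were PIK3R3, a regulatory subunit of PI3-kinase (0.47, adjusted p = 0.0381, edgeR), PIK3CD, a catalytic subunit (−0.76, adjusted p = 0.0180), and the mTOR partner MLST8 (−0.31, adjusted p = 0.0312). Of 14 RAS and MAP kinase genes, MAP2K1, the kinase upstream of ERK, was lower (−0.48, adjusted p = 0.00705, edgeR), and 0 were higher. Each of these shares can be read against the 2.79% and 3.84% of all genes.

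Of 13 tested genes known to respond to FOXO factors, which AKT restrains, 1 was higher and 3 lower, beside 2.79% and 3.84% of all genes. TXNIP, an inhibitor of glucose uptake, had the largest change of these 4 and fell from 124 ± 18.7 to 50.1 ± 2.88 CPM (SD, n = 3; log2 fold change −1.31, adjusted p = 6.49e-07, edgeR). BNIP3, a mitophagy receptor, and the co-regulator CITED2 were also lower (−0.49 and −0.42, adjusted p = 0.00240 and 0.00587, edgeR), while the ubiquitin ligase gene FBXO32 was higher (0.99, adjusted p = 0.00311, edgeR). The members called thus went both ways within this list. Of 11 genes of lysosomal sorting and insulin degradation, IDE, the insulin-degrading enzyme, was lower (−0.48, adjusted p = 0.00696, edgeR), and 0 were higher, beside the same shares of all genes.

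At 48 h, edgeR called 0 of the 110 tested genes of these 8 lists (20 at an unadjusted p under 0.05, against 13.4% of all genes), and DESeq2 called IGF2BP1 higher (0.37, adjusted p = 0.0420) and IGFBP4 lower (−0.50, adjusted p = 0.0161), against 0.386% and 1.17% of all genes by that tool. Without control replicate B, 5 of 30 tested PI3K, AKT, and mTOR genes were higher and 4 lower. Of 27 receptor adaptors and brakes 3 were higher and 1 lower, and of 13 FOXO-responsive genes 3 and 1. Of 7 genes of the IGF2 locus list 3 were higher and 1 lower, and of 11 of the lysosomal list 2 and 1. Of 14 RAS and MAP kinase genes 0 were higher and 1 lower. Of 5 other family genes 1 was higher and 1 lower, and of 3 IGFBP proteases and their inhibitors 1 and 0. These counts stand against the 7.76% and 8.17% of all genes in that comparison.

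The genes whose pattern over the 12 libraries was most like that of IGF2 were the cholesterol synthesis genes MVD (Pearson r = 0.972) and LSS (r = 0.966) and the iron regulator HFE (r = 0.966), among 12017 genes searched. Those most like IGFBP3 were PPP2R2B (r = 0.962), ZNF430 (r = 0.956), and PPP1R14C (r = 0.953), and those most like IRS1 were TMEM183A (r = 0.969), THBS2 (r = 0.966), and MRPL19 (r = 0.966). These r values describe 12 libraries that fall into 4 groups and share treatment and time, and they carry no p.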

How the data were processed

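RNA sequencing of TIGK cells at 48 mM glucose was used, 3 libraries for each of 4 groups (500 µM Arg or none, 24 or 48 h). Per the submitters' processing notes and the methods, reads were filtered with fastp, mapped to GRCh38/hg38 with STAR, and counted per gene with featureCounts. The authors deposited these raw counts for all 12 libraries with gene spans and exonic lengths, without normalization. The tool versions, the annotation release, and the strand setting are not given in the sources used here. All count columns were used, and 0 were left out.

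Groups came from the labels. Each pair of groups was tested with edgeR 4.0.16 in R 4.3.3 (TMM, filterByExpr, quasi-likelihood test, Benjamini-Hochberg adjustment over all tested genes), and the interaction with all 12 libraries. All 10 members passed the filter in every comparison. The standard error is the absolute log2 fold change divided by the square root of the F statistic. Genes most alike were found on log2 CPM with a prior count of 2. On simulated data with 100 genes changed 2-fold and 100 changed 1.5-fold, the test recovered 72 and 59 with 7 false calls at 24 h, and 75 and 56 with 12 false calls at 48 h. Each gene was simulated by itself, so no simulated library stood apart as a whole, as control replicate B did at 48 h. The recovery at 48 h therefore does not carry over to the real libraries.

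The members and the 14 gene lists were chosen with earlier results of these data known. Named are the members, the remaining IGFBPs, ligands, receptor, and IGF2 neighbours, at most 4 called genes of each list with the largest change in each Arg comparison, the 3 genes most like IGF2 and like the member with the smallest p in each direction, and genes that overlap a member.

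The replicate letters A, B, and C come from the labels. The deviations of same-lettered libraries from their group means had correlations of −0.155 to 0.0576 (24 h) and −0.0514 to 0.0826 (48 h) between Arg and control, and of 0.102 to 0.293 between the times in control cells and −0.0675 to −0.0294 in Arg-treated cells. The letters therefore counted as pairs only between the times in control cells. There the block changed no call of a member but raised the shares of all genes called. The test reported for that comparison is the one without the block. Each comparison was repeated with DESeq2 1.42.0, with the size factors of DESeq2 or the library size in place of TMM, with no low-count filter or a minimum of 10 counts per library, in 1 model of the 12 libraries, with a block for the replicate letter, and with each library left out in turn.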

Additional observations from a re-analysis of the deposited data

How the results depend on the processing

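Of 140 counts of members called under the alternatives, 123 were within 1.5 times the reported count, and of 700 log2 fold changes of members 629 kept their direction and side of the threshold, 30 lost a call, and 21 gained one. With all 12 libraries in a single model, 1 member was lower at 24 h (reported 2) and 1 at 48 h (reported 0), as were 3.51% and 0.244% of all genes. At 48 h, DESeq2 gave 2 lower, the replicate block gave 2 lower, and no filter on low counts gave 1 higher and 2 lower, where 1.17%, 0.968%, and 1.37% of all genes were lower and, without the filter, 0.730% were higher. Without the filter, 2 members were lower over time in control cells (reported 1), and the interaction gave 1 lower, IGFBP3, as were 6.44% and 0.124% of all genes. With each library left out, the counts at 24 h were 1 to 3 higher and 1 to 2 lower, and those at 48 h 0 to 2 higher and 0 to 2 lower. Of all genes, 0.859% to 4.42% were higher and 1.59% to 6.02% lower at 24 h. At 48 h these shares were 0% to 7.76% and 0.0336% to 8.17%. Over time the counts of members were 2 to 4 higher and 1 lower in control, and 3 to 5 higher and 1 to 4 lower in Arg-treated cells. The shares of all genes were 2.85% to 10.7% higher and 2.74% to 11.6% lower in control. In Arg-treated cells they were 10.4% to 12.4% and 9.31% to 12.9%. The replicate letter as a block called IGFBP6 lower at 24 h and 48 h and IGFBP7 lower at 48 h (log2 fold change −0.57), where the letters did not pair the libraries.

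Log2 fold changes turned sign in 20 cases, none of them past the threshold. With each library left out, the values at 24 h ran from −0.061 (without control replicate B) to 0.073 (without control C) for INSR, which was also 0.052 without Arg C and 0.0023 with library size only, and from −0.10 to 0.083 for IGFBP2, which was above 0 without control B (0.025) and without Arg A. At 48 h they ran from −0.063 (without Arg C) to 0.13 for IGF1R, from −0.012 (without Arg A) to 0.12 for IGFBP2, and from −0.098 (without control C) to 1.47 (without control B) for IGFBP3, which was also −0.069 without control A and −0.020 without Arg A. Over time in control cells they ran from −0.050 to 0.019 for IRS2 and from −0.14 to 0.15 (without the 48 h control B) for IGFBP7. IRS2 was 0.058 and IGFBP7 0.031 with library size only, and IRS2 was 0.0040 with at least 10 counts in every library. In the interaction they ran from −0.034 to 0.15 for IGFBP2 and from −1.03 to 0.53 (without the 48 h control B) for IGFBP3. The causes were not tested. The low counts of IGF2, INSR, and IGFBP5 limit the precision of their values.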
